A study of Homo sapiens with 22 samples.

Results

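In all, 10 genes that encode the subunits of the transcription factor NF-kB and regulators of its pathway were followed across the culture of haematopoietic progenitor cells with and without ectopic MYC: NFKB1, NFKB2, REL, RELA, RELB, NFKBIA, TNFAIP3, TRAF1, BIRC2 and BIRC3. They were picked by gene name, and each name matched 1 row, giving 10 of the 60240 genes in the deposited count table. All 10 passed the filter on low counts, as did 20115 genes in all. Polyadenylated RNA was sequenced from progenitors derived from the H1 line of human embryonic stem cells, an established cell line. In the DOX arm, doxycycline switched on ectopic MYC, and libraries were made on days 12, 14, 16, 18 and 20 of culture. The UT arm was left without doxycycline and was sampled on the same days and, in addition, on day 10. Each of the 11 groups had 2 libraries, 22 in all (10 DOX and 12 UT). Every title carries the same line name and every library the same batch number, and no group used here received doxycycline without the MYC construct. An effect of doxycycline itself therefore cannot be told apart from one of MYC. When doxycycline was added is not given in the sources used here. GEO labels do not say whether the 2 libraries of a group came from separate cultures, so each p-value is set against the spread of these libraries alone, which may be of technical origin.

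As background, NF-kB is a dimer built from a family of subunits that share a DNA-binding region. RELA and REL, which carry activation domains, usually pair with the product of NFKB1 in the canonical pathway, while RELB pairs with the product of NFKB2 in the noncanonical pathway. In resting cells, inhibitors such as the product of NFKBIA hold the dimers in the cytoplasm. Signals from cytokine and innate immune receptors destroy the inhibitor, the dimers enter the nucleus, and among the genes they switch on are their own inhibitors, NFKBIA and TNFAIP3, together with BIRC3, TRAF1, RELB and NFKB2. Transcript levels of these feedback genes are often used as a readout of the pathway in blood cells, but they do not measure the nuclear protein.

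The promoters are shown first, because genes with and without a match to the NF-kB motif sit side by side in the results. RefSeq promoter windows of 300 bases on GRCh38.p14, from 250 bases before to 50 bases after a start site, were found for 9 of the 10 genes, in 16 windows. No window was found for RELB. Both strands were searched for the kappa B consensus and for CACGTG, the E-box that MYC and its partner MAX bind. Capitals mark kappa B consensus matches in the printed windows, which are given in the direction of transcription. BIRC3, the gene that differed most between the arms, had 2 matches, 199 and 135 bases before its start site. BIRC2, its neighbour on chromosome 11, had none. NFKBIA had 1, at 81 bases, and TNFAIP3 had 2, at 67 and 55 bases, beside a CACGTG at 78 bases.
BIRC3 promoter, chr11:102317234-102317533, plus strand: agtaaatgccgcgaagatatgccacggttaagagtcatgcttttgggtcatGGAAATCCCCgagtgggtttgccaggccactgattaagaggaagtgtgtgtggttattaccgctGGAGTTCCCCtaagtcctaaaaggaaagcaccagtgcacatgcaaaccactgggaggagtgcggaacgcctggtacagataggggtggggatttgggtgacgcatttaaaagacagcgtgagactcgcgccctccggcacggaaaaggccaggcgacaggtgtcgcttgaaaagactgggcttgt
BIRC2 promoter (upstream window), chr11:102346964-102347263, plus strand: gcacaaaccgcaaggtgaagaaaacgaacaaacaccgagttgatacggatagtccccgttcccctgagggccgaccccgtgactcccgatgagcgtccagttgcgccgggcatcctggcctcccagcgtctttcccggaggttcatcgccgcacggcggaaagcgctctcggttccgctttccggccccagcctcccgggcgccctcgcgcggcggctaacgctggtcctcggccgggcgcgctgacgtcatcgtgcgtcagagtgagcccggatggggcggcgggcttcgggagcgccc
NFKBIA promoter, chr14:35404700-35404999, minus strand: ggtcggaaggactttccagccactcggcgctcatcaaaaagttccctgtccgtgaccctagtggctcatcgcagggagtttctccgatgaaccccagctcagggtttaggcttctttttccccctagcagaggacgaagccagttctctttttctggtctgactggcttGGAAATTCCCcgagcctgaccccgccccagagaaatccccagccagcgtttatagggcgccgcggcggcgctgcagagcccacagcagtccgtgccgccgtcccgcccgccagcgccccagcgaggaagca
TNFAIP3 promoter, chr6:137867009-137867308, plus strand: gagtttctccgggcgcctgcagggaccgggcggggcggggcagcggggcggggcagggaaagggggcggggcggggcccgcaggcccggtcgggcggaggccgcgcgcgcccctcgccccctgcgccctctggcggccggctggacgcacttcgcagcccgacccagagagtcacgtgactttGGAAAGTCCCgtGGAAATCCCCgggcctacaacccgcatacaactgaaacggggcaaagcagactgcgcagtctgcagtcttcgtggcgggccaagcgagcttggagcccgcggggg
The consensus was present in 7 of the 16 windows, against 11.3% of all 35116 windows of this length. By gene it was present in 6 of the 9 (NFKB1, NFKB2, REL, NFKBIA, TNFAIP3 and BIRC3). Some genes had more than 1 window, and the windows of BIRC2 overlap. Genes that NF-kB switches on are in the list by choice, so the share of windows with a match is no test of the pathway. CACGTG was present only in the TNFAIP3 window among the 16, against 7.26% of all windows. The windows of RELA, TRAF1 and BIRC2 held neither motif. Matches did not track the averaged comparison below. NFKB1 and NFKB2 had matches and were not called (-0.11 and -0.03), and TRAF1 and BIRC2 had none and were called lower (-0.24 and -0.26). REL, NFKBIA, TNFAIP3 and BIRC3 had matches and were called lower, and RELA had none and was not called. A match is a stretch of letters and not a bound site.

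Library totals lay between 24730517 and 53508590 counts. Transcripts of mitochondrially encoded genes took 9.02% to 58.8% of counts in DOX libraries and 8.51% to 72.9% in UT libraries, with the highest shares on the last days. Levels are therefore given as CPM, counts relative to the library total after TMM scaling, which sets each gene against the bulk of genes. With library sizes alone, the median of all genes in the averaged DOX against UT comparison was 0.60 on the log2 scale, against 0.08 with TMM, and directions below are relative to this bulk. Whether the MYC row of the table takes reads of the construct is not given in the sources used here. MYC averaged 237, 174, 109, 61.2 and 39.2 CPM in DOX on days 12 to 20, and 149 CPM in UT on day 10 and 123, 73.4, 53.3, 39.1 and 31.7 CPM in UT on days 12 to 20. The MYC difference between DOX and UT met the threshold on days 12, 14 and 16 but not on days 18 and 20 (adjusted p 0.051 and 0.39). All 10 progenitor markers (among them CD34, KIT, GATA2 and PTPRC) had counts in all 22 libraries, with 2 higher and 5 lower in DOX. Their summed level was 1168 to 1606 CPM in DOX and 1324 to 1693 CPM in UT from day 12. The sum does not show that each marker held its level. SPN had the highest median of them (595 CPM), while CD34 ranged from 1.98 to 111 CPM and KIT from 4.28 to 98.9 CPM. The cultures also held transcripts of maturing cells: the 10 mast cell, basophil and eosinophil markers summed to 258 to 11781 CPM in DOX and to 794 to 33683 CPM in UT from day 12. The 10 neutrophil markers summed to 757 to 2175 CPM in DOX and 1272 to 4116 CPM in UT, and the 10 monocyte and macrophage markers to 217 to 359 CPM in DOX and 265 to 678 CPM in UT. In the averaged comparison 9, 10 and 7 members of these lists were lower in DOX and 0 were higher. Of the erythroid, megakaryocyte and endothelial markers 9, 10 and 7 were higher in DOX and 0 lower, and of the pluripotency markers 3 were higher and 0 lower. The first 3 sums were higher in DOX on days 16, 18 and 20 but lower on day 12. On day 12 the erythroid sum was 2153 and 2473 CPM in DOX and 2514 and 2769 CPM in UT. The megakaryocyte sum was then 7135 and 7983 CPM against 10493 and 11545 CPM, and the endothelial sum 732 and 787 CPM against 1032 and 1036 CPM. Lymphocyte markers summed to at most 33.4 CPM in DOX and 41.2 CPM in UT, with 1 higher, 2 lower and MS4A1 at 0 in all libraries, and of the fibroblast markers 1 was higher and 1 lower. The fibroblast sum was 562 CPM in UT day-16 replicate 2, against 18.3 CPM in the other library of that group and 15.0 to 31.8 CPM in DOX. Without that library NFKB2 lost its day-16 call, and the other genes called lower on that day kept theirs. In bulk RNA, fewer cells of a type and less RNA per cell cannot be told apart.

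Averaged over days 12 to 20, 7 of the 10 genes were lower in DOX than in UT and 0 were higher: BIRC3, REL, RELB, TNFAIP3, NFKBIA, BIRC2 and TRAF1. Of all 20115 genes tested, 52.9% were called in this comparison, 29.8% as higher and 23% as lower. The median log2 fold change was -0.37 over the 10 genes and 0.08 over all genes. NFKB1, NFKB2 and RELA were not called. A call means an adjusted p under 0.05 in edgeR's quasi-likelihood test with Benjamini-Hochberg adjustment over all genes tested. With library sizes alone, the averaged values of NFKB1, NFKB2, RELA, NFKBIA, TRAF1 and BIRC2 turned positive (0.43, 0.51, 0.51, 0.06, 0.29 and 0.27), each below the 0.60 of the median gene, and those of RELB, TNFAIP3 and REL were no longer called (-0.12, -0.07 and -0.21). That scaling thus called 5 genes higher and 1 lower, where it called 11581 of all 20115 genes higher and 1609 lower. BIRC3 was called lower under both scalings, at -1.38 with TMM and -0.85 with library sizes alone. With library sizes alone after removing mitochondrially encoded genes, 6 genes were called lower and 0 higher. Of all 21134 genes in that setting, 3781 were lower and 7092 higher. Over days 16, 18 and 20 alone, 9 genes were lower and 0 higher, all but NFKB2, with NFKB1 at -0.38 and RELA at -0.39. Of all 20115 genes, 4771 were lower and 5925 higher over those days. The genes were listed with results of these data in view, so these counts describe them and are no independent evidence about the pathway.

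**Figure D1:**
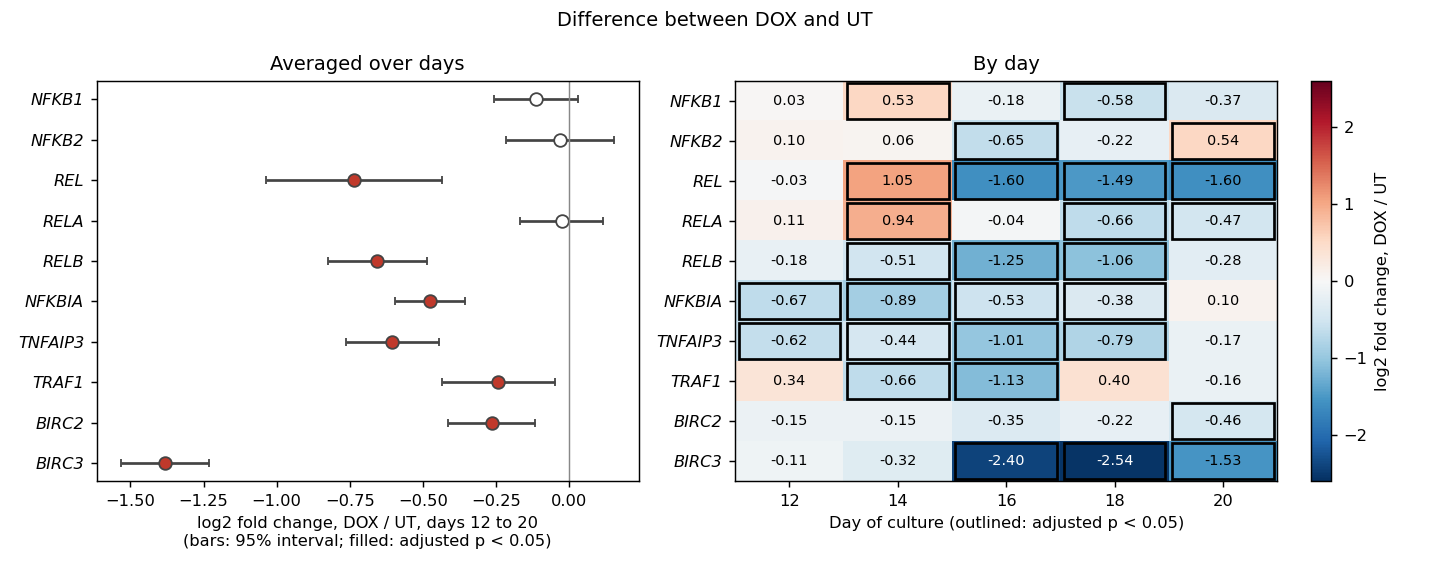
Difference between DOX and UT for the 10 genes. The left panel gives the log2 fold change averaged over days 12 to 20 (points, 95% intervals as bars, filled where called) and the right panel the value on each day (outlined where called). BIRC3 stands lowest at -1.38 on average and at -2.397 and -2.54 on days 16 and 18, while on day 14 NFKB1, REL and RELA are positive. Values are TMM-scaled, and with library sizes alone the averaged values of NFKB1, NFKB2, RELA, NFKBIA, TRAF1 and BIRC2 are above 0.

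By day, 2 genes were lower on day 12 (NFKBIA and TNFAIP3), where 3.11% of all genes were called, 0.845% as higher and 2.26% as lower. On day 14, 3 were higher (NFKB1, REL and RELA) and 4 lower (RELB, NFKBIA, TNFAIP3 and TRAF1), where 27% of all genes were called, 15.3% as higher and 11.7% as lower. On day 16, 7 were lower (NFKB2, REL, RELB, NFKBIA, TNFAIP3, TRAF1 and BIRC3), where 39.9% of all genes were called, 21.2% as higher and 18.7% as lower. On day 18, 7 were lower (NFKB1, REL, RELA, RELB, NFKBIA, TNFAIP3 and BIRC3), where 35.8% were called, 19.8% as higher and 16% as lower. On day 20, 1 was higher (NFKB2) and 4 lower (REL, RELA, BIRC2 and BIRC3), where 27.8% were called, 15.9% as higher and 11.9% as lower. The first day with a call was thus day 12 for NFKBIA and TNFAIP3. It was day 14 for RELB and TRAF1 (lower) and for NFKB1, REL and RELA (higher). For BIRC3 and NFKB2 it was day 16, and for BIRC2 day 20. These days come from a threshold and are no test of an order in time. BIRC3, not called on day 14, averaged 10.6 CPM in DOX and 13.3 CPM in UT on that day. With library sizes alone the calls were 0 higher and 2 lower on day 12, 3 and 3 on day 14, 4 and 1 on day 16, 4 and 1 on day 18, and 8 and 1 on day 20. Of all 20115 genes, that scaling called 63 higher and 409 lower on day 12 and 2626 and 2158 on day 14. It called 10275 and 1004 on day 16, 10801 and 645 on day 18, and 10657 and 437 on day 20. The day-20 call of NFKB2 was lost with DESeq2 size factors, with the filter of 1 CPM in 4 libraries and with DESeq2, each of which gave 0 higher and 5 lower. Over all genes these gave 2706 higher and 2849 lower of 20115, 2830 and 2611 of 15271, and 3052 and 3221 of 20115. The counts of days 12, 14 and 20 fell when some single libraries were left out. Calls over all genes were not counted in those refits, so the falls do not show that these genes are unusual. Without 1 of the 4 day-12 libraries, NFKBIA stayed between -0.69 and -0.65 on that day and TNFAIP3 between -0.69 and -0.55.

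Among the subunits, RELB had the widest range of group means, 13.9-fold. Gene positions are from GENCODE 29 on GRCh38 and span the whole gene. RELB (ENSG00000104856.14, chr19:45001430-45038198, plus strand), the partner of the NFKB2 product, had in DOX libraries 4.10 and 4.67 CPM on day 12, 9.76 and 7.95 CPM on day 14, 10.4 and 8.78 CPM on day 16, 16.9 and 14.8 CPM on day 18, and 15.1 and 18.0 CPM on day 20. In UT libraries it had 2.31 and 2.45 CPM on day 10, 5.54 and 4.43 CPM on day 12, 13.2 and 12.0 CPM on day 14, 21.7 and 23.7 CPM on day 16, 35.2 and 30.9 CPM on day 18, and 18.4 and 21.6 CPM on day 20. Both DOX libraries lay below both UT libraries on every day from 14 to 20, and the arms overlapped on day 12. RELB averaged -0.66 (SE 0.08, adjusted p 1e-06), and it was called at -0.51, -1.25 and -1.06 on days 14, 16 and 18. Without DOX replicate 2, UT replicate 1 or UT replicate 2 of day 14, the day-14 value was -0.37, -0.43 and -0.57 and was not called. Under library sizes alone the values of days 16 and 18 were -0.32 and -0.14 and were not called.

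RELA (ENSG00000173039.19, chr11:65653596-65663094, minus strand), the main activating subunit of the canonical pathway, went the other way along the culture. DOX libraries had 35.9 and 36.7 CPM on day 12, 26.6 and 27.6 CPM on day 14, 13.8 and 14.9 CPM on day 16, 15.7 and 11.8 CPM on day 18, and 15.9 and 13.8 CPM on day 20. UT libraries had 38.7 and 35.4 CPM on day 10, 33.4 and 33.9 CPM on day 12, 14.6 and 13.8 CPM on day 14, 14.5 and 15.1 CPM on day 16, 20.4 and 23.0 CPM on day 18, and 18.6 and 22.4 CPM on day 20. The main drop came between days 14 and 16 in DOX and between days 12 and 14 in UT. DOX lay above UT on days 12 and 14 and below it on days 18 and 20. The difference averaged -0.03 (SE 0.06, adjusted p 0.8), but was 0.94 on day 14 (adjusted p 9.1e-05), -0.66 on day 18 (adjusted p 0.0018) and -0.47 on day 20 (adjusted p 0.027). The averaged sign is not fixed: it was 0.003 with no filter, 0.01 without DOX day-18 replicate 2 or UT day-20 replicate 2, and 0.52 over days 12 and 14 alone, while it was -0.39 over days 16, 18 and 20 alone (adjusted p 0.00076). RELA, with library sizes alone, was at 0.25 on day 18 and 0.46 on day 20, and the day-20 value was not called without DOX replicate 2 (-0.37) or UT replicate 2 (-0.30), with no filter (-0.44), with limma-voom (-0.47), with only the groups compared (-0.50), or with mitochondrially encoded genes removed and library sizes alone (-0.20). RELA overlaps the edge of a gene on the other strand, and the strand setting of the counting is not given in the sources used here.

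REL, the subunit that is most typical of blood cells, lies at chr2:60881521-60931610 on the plus strand (ENSG00000162924.15). It had 15.0 and 17.0 CPM in DOX on day 12, 9.55 and 13.1 CPM on day 14, 5.02 and 5.27 CPM on day 16, 7.89 and 8.67 CPM on day 18, and 9.51 and 14.8 CPM on day 20. UT had 18.0 and 16.9 CPM on day 10, 16.3 and 16.4 CPM on day 12, 6.53 and 4.44 CPM on day 14, 10.6 and 20.6 CPM on day 16, 17.5 and 28.8 CPM on day 18, and 28.2 and 44.98 CPM on day 20. DOX libraries lay above UT on day 14 and below UT on days 16, 18 and 20, and the UT replicates of the last 3 days differed widely. REL averaged -0.74 (SE 0.14, adjusted p 0.00017), with 1.05 on day 14 and -1.60, -1.49 and -1.60 on days 16, 18 and 20. Without UT replicate 2 of the day, the values of days 16 and 18 were -1.04 and -1.08 and were still called, while day 14 was not called without DOX replicate 2 (0.80) or UT replicate 2 (0.79). On that other scaling by library sizes alone, REL was at -0.67, -0.59 and -0.69 on days 16, 18 and 20, not called.

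The REL values carry a further limit. All REL counts in the table are fractional, and a noncoding RNA annotated on the same strand (chr2:60925909-60931610 in GENCODE 29, GRCh38) lies within its last exon and took 21.6% to 60.7% of the combined counts in DOX libraries and 11.7% to 72.4% in UT libraries. With both rows summed, REL averaged 20.5, 17.8, 11.7, 18.8 and 29.01 CPM in DOX on days 12 to 20, against 20.9, 15.0, 35.1, 57.8 and 68.9 CPM in UT on the same days and 20.1 CPM in UT on day 10. The summed rows differed by -0.85 on average and by -1.59, -1.62 and -1.25 on days 16, 18 and 20, all called. The day-14 difference was then 0.25 and not called (adjusted p 0.47). How the counting split reads between the rows is not given in the sources used here.

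NFKB1 and NFKB2 encode the precursors of the DNA-binding partners. NFKB1 (ENSG00000109320.13, chr4:102501329-102617302, plus strand, GRCh38) had 28.4 and 26.9 CPM in DOX on day 12, 39.9 and 41.2 CPM on day 14, 29.3 and 28.0 CPM on day 16, 22.6 and 18.2 CPM on day 18, and 25.6 and 21.2 CPM on day 20. In UT it had 23.9 and 25.1 CPM on day 10, 27.8 and 26.4 CPM on day 12, 28.5 and 27.5 CPM on day 14, 34.3 and 30.6 CPM on day 16, 33.6 and 27.3 CPM on day 18, and 26.8 and 33.7 CPM on day 20. NFKB1 in DOX was highest on day 14, where the log2 difference from UT was 0.53 (adjusted p 0.0089), and the difference was -0.58 on day 18 (adjusted p 0.0051). Neither call held without each library of its day: day 14 was at 0.51 without DOX replicate 2 and at 0.51 without UT replicate 2, and day 18 at -0.43 without DOX replicate 2 and -0.39 without UT replicate 1. The average of -0.11 was not called (adjusted p 0.15), was called with the filter of 1 CPM in 4 libraries (-0.17, adjusted p 0.026), and NFKB1 was at 0.35 on day 18 with library sizes alone.

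NFKB2 (ENSG00000077150.20, chr10:102394110-102402529, plus strand) had 17.4 and 20.0 CPM in DOX on day 12, 28.2 and 25.5 CPM on day 14, 26.5 and 20.4 CPM on day 16, 36.3 and 33.6 CPM on day 18, and 39.5 and 32.1 CPM on day 20. UT libraries had 14.0 and 13.3 CPM on day 10, 18.6 and 16.2 CPM on day 12, 31.7 and 19.6 CPM on day 14, 36.2 and 37.2 CPM on day 16, 41.5 and 40.0 CPM on day 18, and 26.9 and 22.3 CPM on day 20. DOX was below UT on days 16 and 18 and above it on day 20. The difference was -0.65 on day 16 (adjusted p 0.01) and 0.54 on day 20 (adjusted p 0.045), and it averaged -0.03 (adjusted p 0.81), a sign that turned without DOX day-16 replicate 2, UT day-14 replicate 1 or UT day-20 replicate 1 (0.004, 0.05 and 0.002). NFKB2 was not called on day 16 without DOX replicate 2 (-0.47) or UT replicate 2 (-0.63) and was at 0.29 there with library sizes alone. It was not called on day 20 without DOX replicate 1 (0.39), UT replicate 1 (0.70) or UT replicate 2 (0.44), nor with DESeq2 size factors (0.46), the filter of 1 CPM in 4 libraries (0.48), DESeq2 (0.46), limma-voom (0.55) or only the groups compared (0.51).

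**Figure D2:**
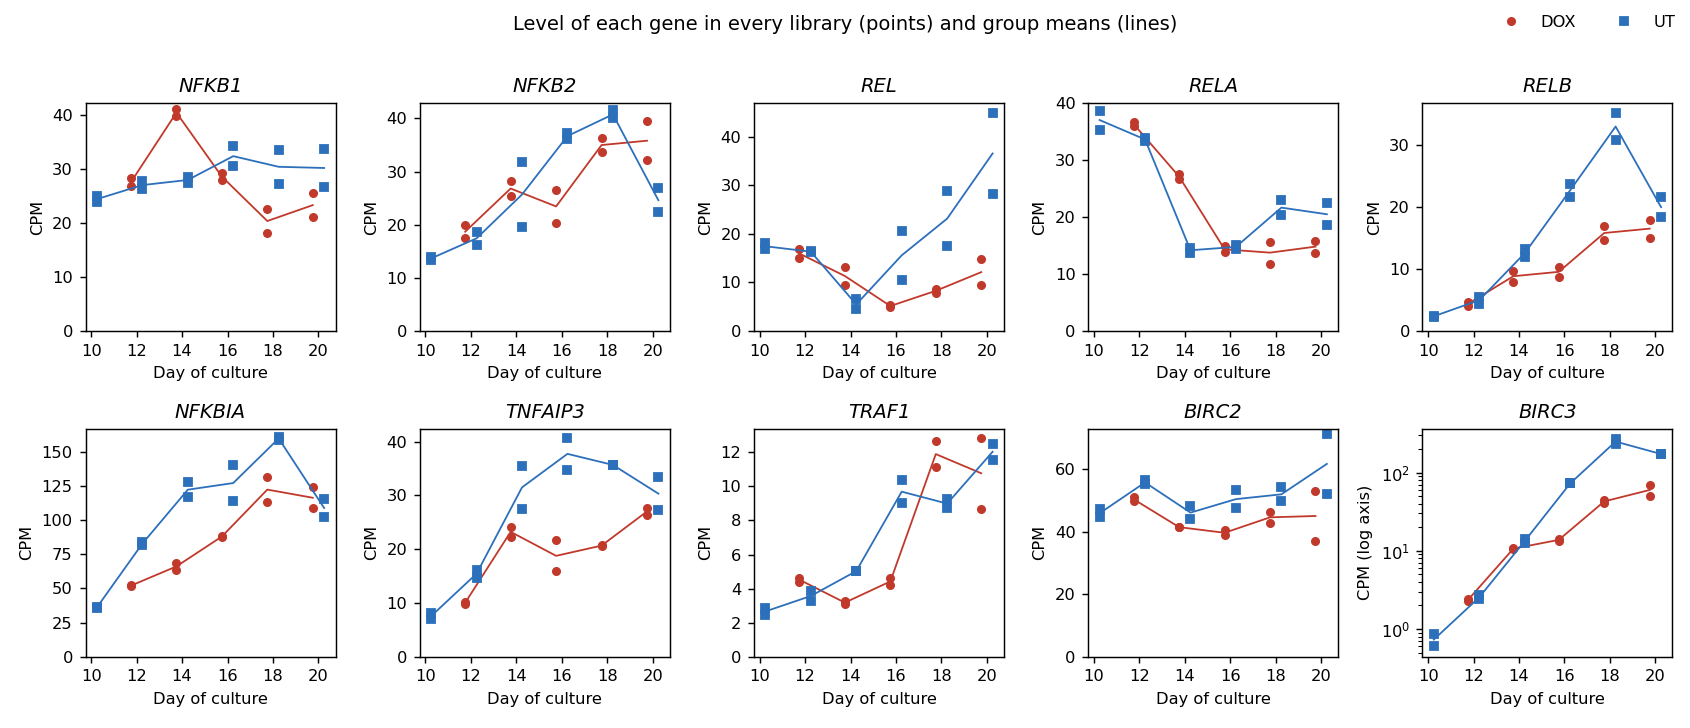
TMM-scaled CPM of each gene in all 22 libraries by day of culture, with DOX as circles, UT as squares and lines through the means of 2 libraries (log axis for BIRC3 alone). In DOX and UT alike RELA is lower and RELB higher on day 20 than on the first day, though not at every step between, and BIRC3 spans 0.598 to 268 CPM.

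The shares of the 5 subunit genes within a library do not depend on how libraries are scaled. Per kilobase of annotated exon, RELA made up 37.2%, 23.4%, 16.5%, 12.9% and 13.02% of the subunit level in DOX on days 12 to 20. In UT its share was 42.8% on day 10 and 35.7%, 15.1%, 10.9%, 12.995% and 16.0% on days 12 to 20. The RELB share was 8.07%, 13.7%, 19.7%, 26.9% and 26.3% in DOX on days 12 to 20, and 4.96% in UT on day 10 and 9.50%, 24.0%, 30.3%, 35.6% and 28.1% in UT on days 12 to 20. The largest subunit by this measure was RELA in DOX on day 12 and in UT on days 10 and 12. On days 18 and 20 it was NFKB2 in DOX (40.2% and 38.3%) and RELB in UT (35.6% and 28.1%). These shares are descriptions over 2 libraries a group. They rest on annotated lengths and not on the isoforms present, and the REL share leaves out the overlapping noncoding row.

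Of the inhibitors, NFKBIA was the most abundant of the 10 genes per kilobase in every group. NFKBIA (ENSG00000100906.11, chr14:35401511-35404749, minus strand) encodes the inhibitor that retains canonical dimers and is resynthesised after each round of activation. DOX libraries had 52.5 and 51.6 CPM on day 12, 68.5 and 63.6 CPM on day 14, 88.0 and 87.9 CPM on day 16, 113 and 132 CPM on day 18, and 124 and 109 CPM on day 20. UT libraries had 36.3 and 35.9 CPM on day 10, 84.0 and 81.4 CPM on day 12, 117 and 128 CPM on day 14, 140.1 and 114 CPM on day 16, 161 and 159 CPM on day 18, and 116 and 102 CPM on day 20. Both DOX libraries lay below both UT libraries on days 12 to 18, and the arms overlapped on day 20. NFKBIA averaged -0.47 (SE 0.05, adjusted p 6.8e-07), with -0.67, -0.89, -0.53 and -0.38 on days 12, 14, 16 and 18. The day-12 call was lost without DOX replicate 1 (-0.68), DOX replicate 2 (-0.66) or UT replicate 1 (-0.65), and the day-18 call without DOX replicate 1 (-0.25), UT replicate 1 (-0.34) or UT replicate 2 (-0.39). NFKBIA was at 0.40 and 0.53 on days 16 and 18 with library sizes alone.

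TNFAIP3 (ENSG00000118503.15, chr6:137867188-137883312, plus strand) encodes a ubiquitin-editing enzyme that shuts off signalling upstream of the inhibitor. DOX libraries had 9.89 and 10.2 CPM on day 12, 22.3 and 24.1 CPM on day 14, 21.6 and 15.9 CPM on day 16, 20.8 and 20.5 CPM on day 18, and 26.4 and 27.6 CPM on day 20. UT libraries had 8.06 and 7.04 CPM on day 10, 16.2 and 14.7 CPM on day 12, 35.5 and 27.5 CPM on day 14, 40.7 and 34.7 CPM on day 16, 35.7 and 35.6 CPM on day 18, and 27.2 and 33.4 CPM on day 20. UT levels were highest on days 14 to 18, where no DOX library reached the lowest UT library, and the arms met on day 20. TNFAIP3 averaged -0.60 (SE 0.07, adjusted p 1.3e-06), with -0.62, -0.44, -1.01 and -0.79 on days 12, 14, 16 and 18. The day-12 call was lost without each of its 4 libraries (-0.69 to -0.55) and the day-14 call without DOX replicate 1 (-0.38), DOX replicate 2 (-0.50) or UT replicate 1 (-0.24). Scaled by library sizes alone, TNFAIP3 was at -0.46 on day 14 and -0.07 on day 16, not called, and at 0.13 on day 18. TNFAIP3 overlaps an antisense gene at its start, which unstranded counting could not separate.

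Among the adaptors and ligases, BIRC3 showed the largest difference. BIRC3 and BIRC2 encode paired ubiquitin ligases that build chains for canonical signalling at the tumour necrosis factor receptor and, in resting cells, help to degrade the kinase of the noncanonical pathway. BIRC3 (ENSG00000023445.16) spans chr11:102317450-102339403 on the plus strand. In DOX libraries BIRC3 had 2.44 and 2.25 CPM on day 12, 10.9 and 10.4 CPM on day 14, 14.3 and 13.3 CPM on day 16, 40.7 and 44.8 CPM on day 18, and 50.7 and 68.9 CPM on day 20. In UT libraries it had 0.866 and 0.598 CPM on day 10, 2.70 and 2.38 CPM on day 12, 14.2 and 12.4 CPM on day 14, 72.6 and 72.6 CPM on day 16, 229 and 268 CPM on day 18, and 172 and 173 CPM on day 20. The highest group mean (249 CPM, UT day 18) was 340-fold above the lowest (0.732 CPM, UT day 10), and DOX did not reach the UT day-16 mean of 72.6 CPM on any day. BIRC3 averaged -1.38 (SE 0.07, adjusted p 2e-11), and it was 5.27-fold lower in DOX on day 16 (-2.397, SE 0.15), 5.82-fold lower on day 18 (-2.54, SE 0.15) and 2.88-fold lower on day 20 (-1.53, SE 0.15), with adjusted p 5.6e-09, 2e-09 and 7.9e-07. On days 12 and 14 its differences were not called (adjusted p 0.9 and 0.11). Over days 12 and 14 alone the average was -0.22 and not called.

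BIRC2 (ENSG00000110330.8, chr11:102347211-102378670, plus strand), next to BIRC3, had the narrowest range of the 10 genes. Its level ranged from 37.1 to 53.0 CPM over the DOX libraries, with group means of 50.4, 41.5, 39.7, 44.6 and 45.02 CPM on days 12 to 20. Over the UT libraries it ranged from 44.1 to 71.2 CPM, with group means of 45.9 CPM on day 10 and 55.8, 46.1, 50.4, 51.9 and 61.7 CPM on days 12 to 20. The largest group mean was 1.56-fold the smallest. BIRC2 averaged -0.26 (SE 0.07, adjusted p 0.0029), lower in DOX than in UT without overlap on days 12 to 18, and was 0.27 with library sizes alone. The day-20 value of -0.46 (adjusted p 0.034) was -0.22 without DOX replicate 1 and -0.19 without UT replicate 2, not called in either case, -0.74 without DOX replicate 2, and 0.45 with library sizes alone.

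The ratio of BIRC3 to BIRC2 counts is independent of scaling. In DOX libraries it was 0.0491 and 0.0441 (day 12), 0.263 and 0.250 (day 14), 0.368 and 0.328 (day 16), 0.949 and 0.967 (day 18), and 1.37 and 1.30 (day 20). In UT libraries it was 0.0194 and 0.0127 (day 10), 0.0478 and 0.0432 (day 12), 0.322 and 0.258 (day 14), 1.36 and 1.53 (day 16), 4.61 and 4.95 (day 18), and 3.30 and 2.42 (day 20). The arms overlapped on days 12 and 14, and on days 16, 18 and 20 both DOX libraries had a lower ratio than both UT libraries. BIRC3 overtook BIRC2 in counts between days 18 and 20 in DOX and between days 14 and 16 in UT. This crossing depends on exon length, which is 7.518 kb for BIRC3 and 4.532 kb for BIRC2. Per kilobase the ratio averaged 0.80 in DOX on day 20, where BIRC3 still lay below BIRC2. In UT it averaged 0.87 on day 16 and 2.88 on day 18. The summed mast cell, basophil and eosinophil markers also rose in both arms, and in UT both they and BIRC3 were lower on day 20 than on day 18. Within the list PRG2 reached 25193 CPM and EPX 5750 CPM, against at most 1.33 CPM for TPSAB1. Summed, these markers were at 258 to 323 CPM on day 12 and 10985 to 11781 CPM on day 20 in DOX. Between these days DOX libraries had 5147.5 and 5149 CPM on day 16 and 7805 and 9585 CPM on day 18. In UT the sum was 37.3 to 37.9 CPM on day 10, 794 to 1029 CPM on day 12 and 27923 to 33683 CPM on day 18. On days 16 and 20 UT libraries had 19111 and 17117 CPM, and 24729 and 20826 CPM. On day 14 the marker sum was 2015 and 1448 CPM in DOX and 9346 and 9320 CPM in UT. BIRC3 then averaged 10.6 CPM in DOX and 13.3 CPM in UT, a difference that was not called. The part of these markers in the BIRC3 result was not tested.

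**Figure D3:**
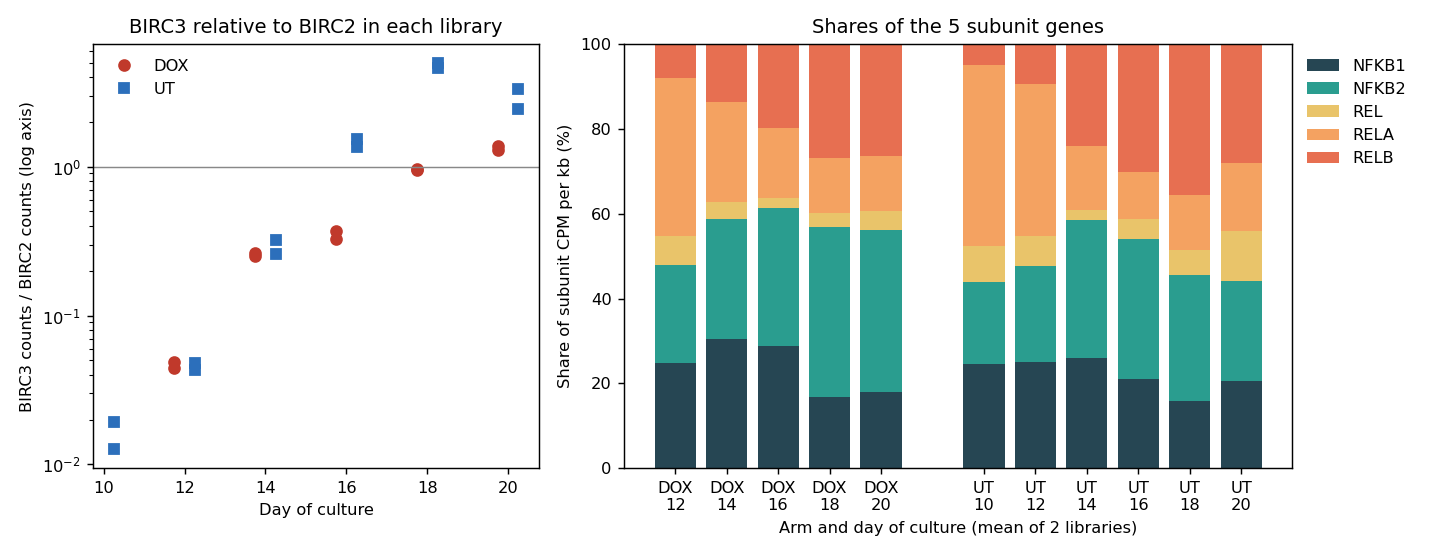
Left, BIRC3 counts over BIRC2 counts in each library by day (log axis, line at equal counts), with DOX as circles and UT as squares. On day 18 the ratio is 0.949 and 0.967 in DOX and 4.61 and 4.95 in UT. Counts in this panel are not divided by exon length. Right, share of each subunit gene in the summed subunit CPM per kilobase (mean of 2 libraries), in which RELA has 37.2% and RELB 8.07% in DOX on day 12, against 13.02% and 26.3% in DOX on day 20.

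TRAF1 (ENSG00000056558.11, chr9:120902393-120929173, minus strand), an adaptor that binds BIRC2 and BIRC3 at receptors of the tumour necrosis factor family, was the gene of the 10 with the lowest mean log2 CPM. DOX libraries had 4.41 and 4.63 CPM on day 12, 3.08 and 3.28 CPM on day 14, 4.61 and 4.23 CPM on day 16, 12.7 and 11.1 CPM on day 18, and 8.67 and 12.9 CPM on day 20. UT libraries had 2.85 and 2.47 CPM on day 10, 3.30 and 3.83 CPM on day 12, 5.03 and 5.02 CPM on day 14, 9.003 and 10.4 CPM on day 16, 9.25 and 8.73 CPM on day 18, and 11.6 and 12.5 CPM on day 20. The main step up came between days 16 and 18 in DOX and between days 14 and 16 in UT. DOX was below UT on days 14 and 16 and above it on days 12 and 18. TRAF1 differed by -0.66 on day 14 (adjusted p 0.017) and by -1.13 on day 16 (adjusted p 0.00018), and with library sizes alone day 16 was at -0.20 and not called. The day-14 call was lost without each of its 4 libraries (-0.71 to -0.62). The average of -0.24 (adjusted p 0.027) was not called without DOX day-12 replicate 1, day-14 replicate 1, day-16 replicate 2, day-18 replicate 2 or day-20 replicate 1, or without UT day-12 replicate 2 or day-16 replicate 2 (-0.24 to -0.19), nor with no filter (-0.21), and was 0.29 with library sizes alone.

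The order of the 11 groups differed from gene to gene. For BIRC3, 8 of the 10 neighbouring pairs in the order of group means had library values that did not overlap, and for RELB 7 of 10. The same library values set the order, and such pairs were not counted over all genes. The counts in this paragraph are therefore descriptions and do not show that these genes are unusual. BIRC3 ran from UT day 18, UT day 20 and UT day 16 down to DOX day 20 and DOX day 18, then DOX day 16 and UT day 14, which overlapped, then DOX day 14, then UT day 12 and DOX day 12, which overlapped, and last UT day 10. RELB ran from UT day 18, UT day 16 and UT day 20 to DOX day 20 and DOX day 18, which overlapped. NFKBIA was highest in UT day 18, and the next 5 groups, UT day 16, DOX day 18, UT day 14, DOX day 20 and UT day 20, formed a run in which each neighbouring pair overlapped. NFKB1 separated in 2 of 10 pairs, REL in 3, NFKB2, RELA and BIRC2 in 4, TNFAIP3 and TRAF1 in 5, and NFKBIA in 6. UT day 10 held the lowest group mean of 6 genes (NFKB2, RELB, NFKBIA, TNFAIP3, TRAF1 and BIRC3).

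Along the UT culture, from day 10 to day 20, 8 of the 10 genes rose and RELA fell, where 62.3% of all genes were called, 28.1% as higher and 34.2% as lower. The rises in UT day 20 over UT day 10 were 7.85 for BIRC3, 3.07 for RELB, 2.17 for TRAF1, 2.01 for TNFAIP3, 1.59 for NFKBIA, 1.07 for REL, 0.85 for NFKB2 and 0.43 for BIRC2 on the log2 scale. RELA fell by 0.85, and NFKB1 (0.31, adjusted p 0.077) was not called, though it was with DESeq2 size factors (0.42, adjusted p 0.021). Without UT day-20 replicate 2, REL was at 0.65 and BIRC2 at 0.14, neither called, and BIRC2 was also not called without either day-10 library (0.39 and 0.47). In the DOX culture from day 12 to day 20, where 56.4% of all genes were called (26.7% as higher and 29.7% as lower), 6 of the 10 rose: BIRC3 by 4.67, RELB by 1.91, TNFAIP3 by 1.43, TRAF1 by 1.248, NFKBIA by 1.16 and NFKB2 by 0.94. RELA fell by 1.29, and NFKB1, REL and BIRC2 were not called (-0.24, -0.40 and -0.16). The DOX course starts 2 days later than the UT course, so the sizes of both courses cannot be set against each other.

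These courses depend on the scaling, because the mitochondrial share rose along both cultures. With library sizes alone the median gene was at -2.41 in UT day 20 against UT day 10 and at -1.26 in DOX day 20 against DOX day 12. BIRC3 and RELB stayed positive in both courses, at 5.68 and 0.89 in UT and at 3.47 and 0.72 in DOX. In the UT course NFKB1, NFKB2, REL, NFKBIA, TNFAIP3, TRAF1 and BIRC2 turned negative (-1.88, -1.33, -1.13, -0.58, -0.18, -0.01 and -1.76), all above the median gene. In the DOX course NFKB2 and NFKBIA turned negative (-0.24 and -0.02), and TNFAIP3 (0.24) and TRAF1 (0.04) were not called. With the overlapping row added to REL, its DOX course was 0.50 and not called (adjusted p 0.069).

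The difference between the arms itself changed with time. From day 12 to day 20, 1 gene had a higher difference (NFKBIA, 0.77, adjusted p 0.0084) and 2 a lower one (BIRC3, -1.41, adjusted p 0.00051, and REL, -1.56, adjusted p 0.028), where 8.96% of all genes were called, 5.62% as higher and 3.34% as lower. NFKBIA, lower in DOX on days 12 to 18, stood at 116 CPM in DOX and 109 CPM in UT on day 20 (0.10, adjusted p 0.6). BIRC3 went the other way, from near-equal levels on day 12 (2.34 CPM in DOX and 2.54 CPM in UT) to 59.8 CPM in DOX and 172 CPM in UT on day 20. The REL change was not called without either DOX day-12 library, either UT day-12 library, DOX day-20 replicate 1 or UT day-20 replicate 2 (-1.65 to -1.18). With library sizes alone the median gene was at 1.03 in this comparison, BIRC3 (-0.45) and REL (-0.59) were not called, and NFKBIA was at 1.75. A test of any change over the 5 days called 8 of the 10 genes, all but TNFAIP3 (adjusted p 0.058) and BIRC2 (adjusted p 0.65), where 31.4% of all genes were called. TNFAIP3 was called in 6 of 10 other settings (adjusted p 0.00043 to 0.087 over all 10). NFKB1 was not called with library sizes alone or when mitochondrially encoded genes were removed as well (adjusted p 0.10 for the second), and BIRC2 was called with library sizes alone (adjusted p 0.00052).

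Outside the 10 genes, 87 other genes of the pathway, in 5 lists written by role, all passed the filter, and 12 were higher and 51 lower in DOX in the averaged comparison, where 29.8% and 23% of all genes were. The remaining 24 were not called, and the median was -0.37, against 0.08 over all genes. Ligands had the lowest median: 7 of 10 were lower and 0 higher (median -1.07), and LTB (-2.11), TNFSF14 (-1.87) and TNFSF12 (-1.58), all members of the tumour necrosis factor family, moved most. LTB, a ligand of the noncanonical pathway, averaged 4.61, 6.73, 10.96, 33.4 and 37.8 CPM in DOX on days 12 to 20, against 8.20, 30.4, 102, 149 and 171 CPM in UT on the same days. Of 24 target genes, 16 were lower and 3 higher (median -0.53), led by CCL20 (-2.05), a chemokine, BCL2A1 (-2.04), a survival factor of myeloid cells, and IER3 (-1.48), an immediate early gene. BCL2A1 averaged 0.347, 1.19, 3.59, 9.08 and 14.2 CPM in DOX and 1.04, 7.66, 16.5, 34.7 and 49.8 CPM in UT on days 12 to 20. BCL2L1, the most abundant target gene, differed by -0.21.

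Of 23 receptors and adaptors, 11 were lower and 4 higher (median -0.28), with IL1R1 at -1.05, TNFRSF1B at -0.93 and the adaptor TRADD at -0.71, while IRAK1, the most abundant, was at 0.34. Of 14 kinases and ubiquitin ligases, 8 were lower and 4 higher (median -0.18). MAP3K14, the kinase that the noncanonical pathway depends on, was at -0.91, and SHARPIN, part of the linear ubiquitin ligase, at -0.60. CHUK, a catalytic subunit of the kinase that marks the inhibitors for destruction, was at 0.62, and TAB2 at 0.32. Of 16 other inhibitors and feedback genes, 9 were lower and 1 higher (median -0.31), with NFKBIE at -0.89, the deubiquitinase CYLD at -0.79, NFKBIB at -0.75 and TNIP1 at -0.37. Scaled by library sizes alone, 38 of the 87 were higher and 17 lower, where 11581 and 1609 of all 20115 genes were. The median was then 0.16 against 0.60 for all genes. Of the genes named here TNIP1 (0.17) and BCL2L1 (0.33) changed sign, and TRADD (-0.19) and SHARPIN (-0.06) were not called. Over days 12 and 14 alone 3 were higher and 38 lower, where 2857 and 2182 of all 20115 genes were. In UT, LTB averaged 30.4 CPM on day 14 and 171 CPM on day 20. The mast cell, basophil and eosinophil marker sum in UT was 9346 and 9320 CPM on day 14 and 24729 and 20826 CPM on day 20. The neutrophil marker sum in UT was 3217 and 3136 CPM on day 14 and 4116 and 3863 CPM on day 20. For the monocyte and macrophage markers it was 678 and 501 CPM on day 14 and 304 and 284 CPM on day 20. The part of these markers was not tested.

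**Figure D4:**
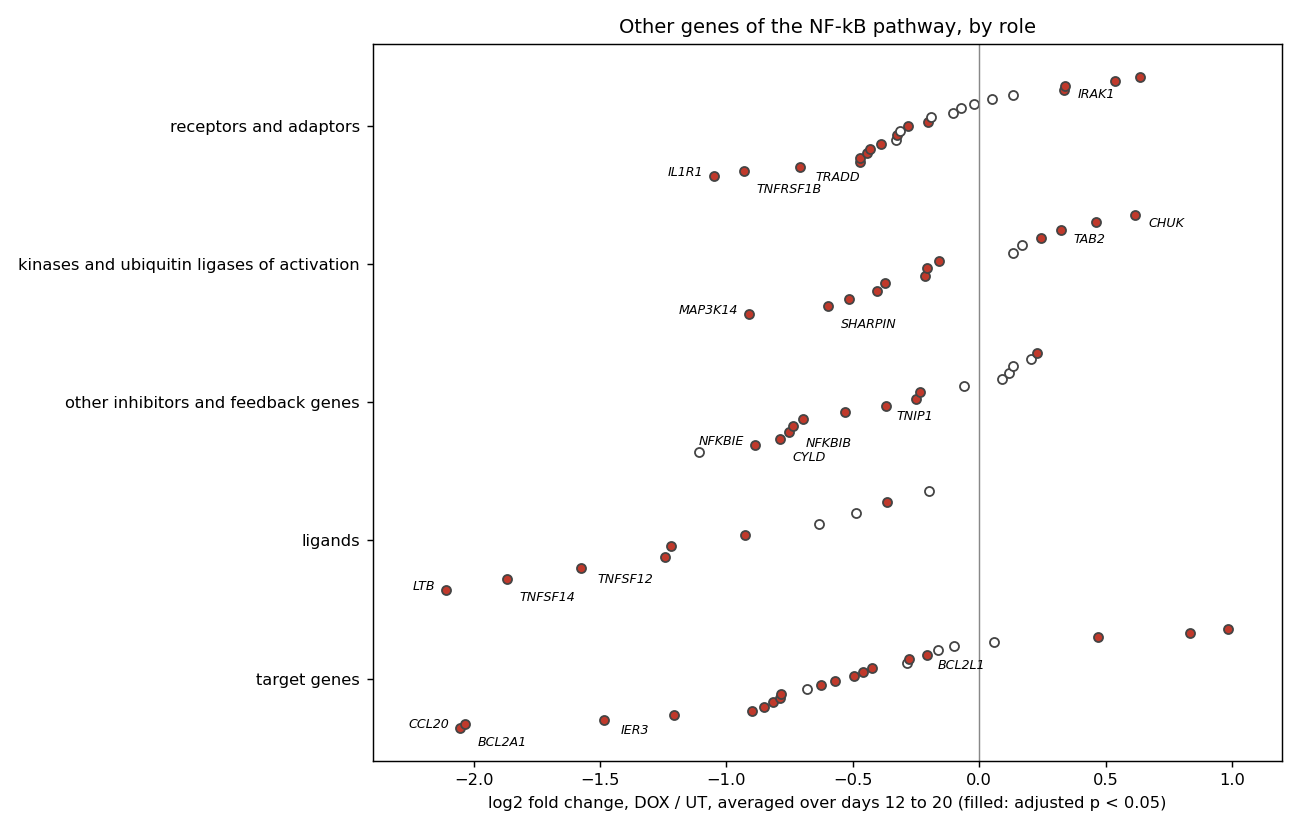
Averaged log2 fold change (DOX over UT) of 87 other pathway genes by role, filled where called. Ligands and target genes reach furthest to the left, with LTB at -2.11 and CCL20 at -2.05, and CHUK is at 0.62. Values are TMM-scaled, and with library sizes alone the median of the 87 genes is 0.16 in place of -0.37.

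Genes with a like pattern over the 11 group means were sought by Pearson's r among 7771 genes with a mean log2 CPM of at least 3. A filter on gene names had left out clones, noncoding loci, antisense genes, pseudogenes and mitochondrially encoded genes. It also dropped coding genes whose names end in P, or in P and digits, so closer genes may have been missed. For BIRC3 the closest of those considered were ACSS1 (0.993), LYRM1 (0.985) and ARRDC1 (0.983). For RELB they were NET1 (0.984), CEBPE (0.983), a transcription factor of granulocyte maturation, and BIRC3 itself (0.979). BIRC3 and RELB were compared because their group means had the widest ranges of the 10 genes on the log2 CPM scale, 8.34 and 3.77. These values describe 11 points that share a time course and the scaling.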

How the data were processed

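The deposited table holds gene-level estimated counts of 22 libraries, made by the authors with Trim Galore 0.6.5, STAR and Salmon on hg38, per the submitters' processing notes. The other versions, the annotation, the strand setting and any filter are not given in the sources used here. Of the values, 88.3% were whole numbers, and all were rounded for the test. No duplicated library was found.

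Groups came from the labels. Genes were kept with edgeR's filterByExpr at a minimum count of 10 (20115 of 60240), scaled by TMM and fitted over all 11 groups with edgeR 4.0.16 (quasi-likelihood, R 4.3.3), which left 11 residual degrees of freedom and a biological coefficient of variation of 0.184 in common. The p-values were adjusted by the Benjamini-Hochberg method over all genes kept, with a threshold of 0.05. The comparisons were DOX against UT on each day and averaged over days 12 to 20, day 20 against the first day of each arm, and how the difference between the arms changed over time. The fit was tested on simulated data with the same spread for every gene. Those data held no time course and no shift of the mitochondrial share, so they do not bear on the choice of scaling. Depth bears on BIRC3 most, which had 31.0 counts in its lowest library. CPM per kilobase used the union of exons in GENCODE 29.

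The 10 genes, the other pathway genes and the marker lists were chosen with earlier results of these data known. All 10 genes are named. A single-day fold change is given where it was called. From each role list of the pathway the text names up to 3 called genes with the largest averaged change and the most abundant gene. For the 2 members with the widest range it gives the 3 most alike genes left by the name filter. The alternatives were other scalings, filters and tools (limma 3.58.1, DESeq2 1.42.0), a replicate block, mitochondrially encoded genes removed, only the groups compared, fewer days and each library left out. The combination of that removal with library sizes alone and the sum of REL with its overlapping row were chosen after seeing the data.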

Additional observations from a re-analysis of the deposited data

Results flagged for a closer look

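For 3 genes the DOX against UT difference on day 20 differed from that on day 12 by edgeR's quasi-likelihood test of the change itself with Benjamini-Hochberg adjustment. The change was -1.56 on the log2 scale for REL, 0.77 for NFKBIA and -1.41 for BIRC3. NFKBIA and BIRC3 were called without each of the 8 libraries of these groups in turn (0.67 to 0.86 and -1.65 to -1.21), and REL was not.

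The test of any change of the difference over the 5 days gave an adjusted p of 0.0037 for NFKB1, 0.023 for NFKB2, 0.00037 for REL, 0.00013 for RELA, 0.0063 for RELB, 0.0029 for NFKBIA, 0.0013 for TRAF1 and 3.5e-07 for BIRC3. NFKB2 missed the threshold without DOX day-16 replicate 2 (adjusted p 0.084), DOX day-20 replicate 1 (0.058), UT day-16 replicate 2 (0.056) or UT day-20 replicate 2 (0.077). With 2 libraries a group, no search for single aberrant libraries was made.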

How the results depend on the processing

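Of 809 values for single genes under other settings, 697 kept direction and call, 49 lost the call, 23 gained one and 40 changed sign, and of 672 with 1 library left out, 601, 56, 5 and 10 did. Scaling mattered most: with library sizes alone the median gene was at 0.60 in the averaged comparison, 0.93, 0.98 and 0.95 on days 16, 18 and 20, -2.41 in the UT course, -1.26 in the DOX course and 1.03 in the change. Values that changed sign there were, averaged, NFKB1 0.43, NFKB2 0.51, RELA 0.51, NFKBIA 0.060, TRAF1 0.29 and BIRC2 0.27; on day 16 NFKB2 0.29 and NFKBIA 0.40; on day 18 NFKB1 0.35, RELA 0.25, NFKBIA 0.53 and TNFAIP3 0.13; on day 20 RELA 0.46 and BIRC2 0.45. In the UT course they were NFKB1 -1.88, NFKB2 -1.33, REL -1.13, NFKBIA -0.58, TNFAIP3 -0.18, TRAF1 -0.0087 and BIRC2 -1.76, in the DOX course NFKB2 -0.24 and NFKBIA -0.020, and in the change NFKB1 0.60, RELA 0.42, RELB 0.89, TRAF1 0.46 and BIRC2 0.66. That scaling called 9 of the 10 genes on day 20 (8 higher, 1 lower) and 6 in the change (6 higher, 0 lower). Of all 20115 genes it called 10657 higher and 437 lower on day 20, and 9441 and 100 in the change. With mitochondrially encoded genes removed as well, NFKB2 averaged 0.071 and RELA 0.081, NFKB1 and BIRC2 were at -0.14 and -0.024 in the UT course, and RELB and BIRC2 at 0.22 and 0.0016 in the change, with 3 genes called on day 20. That setting called 6502 of all 21134 genes on day 20. With no filter RELA averaged 0.0028, and 4 genes were called on day 14 and 3 on day 20, where 5530 and 5660 of all 36507 genes were. On day 20 limma-voom called 3 genes and a fit of only the groups compared called 2. Over all genes these called 4285 of 20115 and 2035 of 15257. Over days 12 and 14 alone NFKB1, NFKB2, REL and RELA averaged 0.28, 0.081, 0.51 and 0.52, and 41 other pathway genes were called. Those days alone called 5039 of all 20115 genes. With the overlapping row added, the REL DOX course was 0.50. The cause of these changes was not tested.

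With 1 library left out, the genes called numbered 6 to 7 averaged, 0 to 1 on day 12, 2 to 5 on day 14, 6 to 7 on day 16, 5 to 6 on day 18, 2 to 5 on day 20, 7 to 10 in the UT course, 7 to 8 in the DOX course, 2 to 4 in the change and 7 to 9 in any change, and other pathway genes 60 to 66. Signs changed for NFKB2 and RELA averaged (-0.093 to 0.046 and -0.061 to 0.013), the RELB change (-0.26 to 0.061) and the BIRC2 DOX course (-0.44 to 0.073). A group that loses a library has 1 left, which is assumed to vary like the others. Calls over all genes were not counted in these refits, so the ranges do not show that the listed genes are unusual. No label says that replicate numbers pair the samples, and they were not treated as pairs: over 55 pairs of groups the correlation of same-numbered deviations was -0.035 to 0.47 (median 0.14), and 32 exceeded 0.1. With a replicate block 7 genes were called in the averaged comparison, 2, 7, 8, 7 and 5 on days 12 to 20, 9 and 7 in the UT and DOX courses, 3 in the change and 9 in any change, where TNFAIP3 gained a call (adjusted p 0.040). Over all 20115 genes the block called 10885 in the averaged comparison, and 950, 6056, 8392, 7653 and 6082 on days 12 to 20. Without it the daily numbers were 625, 5422, 8028, 7203 and 5584. The block called 12673 and 11599 of all genes in the UT and DOX courses, 2418 in the change and 7275 in any change.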
